A study of Mus musculus with 4 samples.

Results

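Prostates of TRAMP mice were compared with prostates of C57BL/6 mice, both collected 12 hours after 1 oral dose of TmT, a blend of vitamin E tocopherols in which the gamma form predominates, at 600 mg/kg. The comparison was 1 array minus 1 array, which are 2 of the 4 arrays of the study. It covered the 17251 of 27974 genes whose probe was well above background on both arrays. The transgene of TRAMP mice holds early genes of SV40 and is driven in the epithelium of the prostate by the promoter of rat probasin. C57BL/6 mice carry no transgene and served as the normal counterpart. The background strain of the TRAMP mice is not given in the labels, so a difference between the lines cannot be assigned to the transgene rather than to other strain differences. The mice of every group were males of 8 weeks, fed an AIN-76A diet for a week and then left without food overnight before gavage. The other 2 arrays came from TRAMP and C57BL/6 mice given olive oil in place of TmT. Each group had 3 mice, and whether an array held RNA of 1 mouse or of a pool is not stated.

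TRAMP is a model of prostate cancer. The large T antigen of SV40 binds and inactivates the retinoblastoma protein (Rb) and p53. Free of Rb, E2F transcription factors switch on the genes of DNA replication, and the cells go on to divide. The normal mouse prostate is a slowly renewing gland whose luminal cells secrete proteins into the seminal fluid under the control of androgens.

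A level here is the log2 of a probe's intensity minus the log2 of the 75th percentile of its array, and a difference is TRAMP minus C57BL/6 on that log2 scale. The ± beside a difference is the scanner software's error for those spots, combined over both arrays. It does not cover the spread between mice: with n = 1 array per group there was no replicate to check a difference against, and no test was made. The median of that error was 0.21 log2 units. In bulk tissue, fewer cells of a type and less RNA per cell cannot be told apart.

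After TmT, 1457 genes lay 2-fold or more higher in TRAMP prostate, which was 8.45% of the genes measured, and 1050 genes (6.09%) lay 2-fold or more lower. Beyond 4-fold the counts were 187 and 102, and beyond 8-fold 31 and 16. The median difference over all measured genes was 0.01, and the middle 95% of genes lay between -1.35 and 1.54. The gene just inside the 2-fold limit differed by 1.0002 and the gene just outside it by 0.9988. Higher genes made up 58.1% of the genes past 2-fold, a share that was 46.8% when arrays were scaled to their median, and 27.9% or 0.211% under background correction by normexp, without or with the spots under a bright speck. With those spots normexp also moved 25 list medians by more than the error, and 3 more that had lain beyond that error turned sign, and without those spots it moved 17. Dim genes carried more of the higher calls. With the genes split by mean level into 5 equal groups, 13.3% of the dimmest group were higher and 3.71% lower, while in the brightest group the shares were 4.72% and 6.61%. The lowest level well above background was -4.57 on the C57BL/6 array and -3.53 on the TRAMP array. A level between these could pass the filter in C57BL/6 mice but not in TRAMP mice. The part of this uneven filter in the dim higher calls was not tested.

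**Figure D1:**
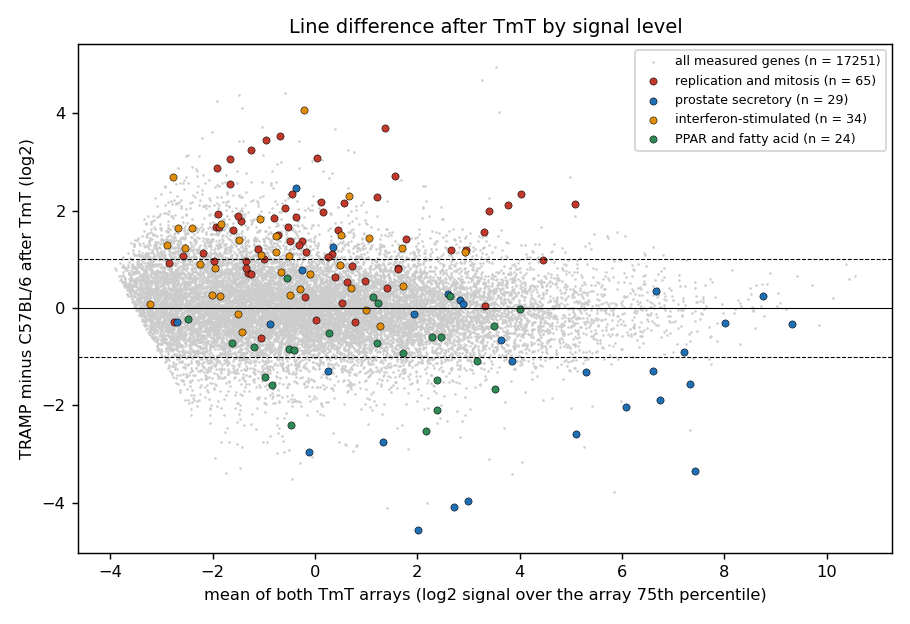
Difference between TRAMP and C57BL/6 prostate after TmT (vertical axis, log2) against the mean level of each gene on the same 2 arrays (horizontal axis, log2 relative to the 75th percentile). Each point is a gene well above background on both arrays (n = 17251), with members of 4 lists in colour, and dashed lines mark 2-fold. The higher genes lie more to the dim side (13.3% of the dimmest of 5 groups, 4.72% of the brightest), and the median of all genes is 0.01.

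The array of TRAMP mice after TmT was the weakest of the 4. Its 75th percentile was 71.3 intensity units against 118 for C57BL/6 after TmT, and 63.9% of its spots were well above background against 68.1%. The arrays after oil had 139 and 161 units. All 4 arrays shared a slide and a scan. For probes printed several times on an array, the median SD between copies was 0.129 on the C57BL/6 TmT array and 0.146 on the TRAMP TmT array. Different probes of a gene spread more. Among 682 genes past 2-fold that had more than 1 measured probe, all probes differed in the same direction for 421 (61.7%) and all passed 2-fold for 126 (18.5%). Other probes of the genes named below are therefore given in many cases where they differ in sign or in passing 2-fold.

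Replication licensing genes, whose products load the MCM helicase onto DNA before S phase, were among the most shifted groups. Of 15 measured, 10 were at least 2-fold higher in TRAMP prostate and none was lower, with a median of 1.38. Mcm3, a helicase subunit, stood at -0.48 in C57BL/6 and 3.21 in TRAMP mice after TmT, and at -0.05 and 3.11 after oil. Both TRAMP arrays lay above both C57BL/6 arrays, and its 2 probes differed by 3.37 and 3.69 after TmT. Mcm6 had levels of 4.01 and 6.14 after TmT and of 3.81 and 7.37 after oil, a TmT difference of 2.13 ± 0.20. Under normexp the Mcm6 difference was 1.92 without the speck spots and turned to -0.53 with them. For Mcm2 the levels were -1.61 and 0.44 after TmT (2.06 ± 0.21), and -1.86 and 0.99 after oil. For Mcm5 they were -1.31 and 0.56 after TmT (1.87 ± 0.21), and -1.44 and 1.24 after oil. The 3 genes kept the order of the lines in both treatments, with a larger difference after oil than after TmT.

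The promoters of this group are shown because E2F factors are known to bind such sequences in replication genes. An E2F site was searched as TTTCCCGC, TTTGGCGC or TTTCGCGC on both strands of the 250 bases before the start site. It was present in 3 of the 10 licensing genes found in the promoter table (30.0%), in 2 of 17 replication fork genes (11.8%) and in 0 of 26 mitosis genes, beside 2.94% of 10707 measured genes and 1.78% of all 27025 promoters of the table. The sequences are from RefSeq, build GRCm38.p6, each read 5′ to 3′ on the gene's strand, and capitals mark every E2F site within a window. Mcm5 holds 2 that overlap, and Mcm6 holds 3 in its 250 bases, of which the window shows 1. The window of Mcm6 is chr1:128359706-128359802 on the minus strand and that of Mcm5 is chr8:75109310-75109417 on the plus strand. A match describes letters and not binding, and the shares describe the lists and not this comparison.
Mcm6: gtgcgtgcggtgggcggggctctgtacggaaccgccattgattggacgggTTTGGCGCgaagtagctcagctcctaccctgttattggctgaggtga
Mcm5: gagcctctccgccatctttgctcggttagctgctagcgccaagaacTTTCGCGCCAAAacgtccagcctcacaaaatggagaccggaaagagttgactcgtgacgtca

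Genes of the replication fork and of nucleotide supply went the same way, with 11 of 19 higher, none lower and a median of 1.12. Wdhd1, a fork protein that links helicase and polymerase, was at -2.69 in C57BL/6 and 0.76 in TRAMP after TmT (3.45 ± 0.23), and at -2.83 and 0.83 after oil. Pola1, the catalytic subunit of polymerase alpha, moved from -0.96 to 1.21 between the lines after TmT, and from -0.63 to 1.97 after oil. Dut, which removes dUTP from the nucleotide pool, stood at 2.71 and 4.83 after TmT, and at 2.78 and 4.84 after oil. The Dut levels of each line were nearly the same with and without TmT, although under normexp its difference after TmT was 1.78 without the speck spots and -0.19 with them. Pcna, the sliding clamp, stayed just under 2-fold at 0.99 ± 0.06 after TmT, beside 1.47 after oil. Rrm2, which makes deoxyribonucleotides, had levels of -2.72 and -1.05 after TmT and of -0.42 and 1.71 after oil, so that both TmT arrays lay below both oil arrays.

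Mitosis genes had the largest median of the 45 lists, 1.61, with 23 of 31 higher and none lower. Ccnb1, the cyclin of mitotic entry, stood at -2.45 and 1.09 after TmT and at -1.28 and 0.99 after oil. Cdc25c, the phosphatase that starts mitosis, was 3.24 ± 0.24 higher by its brightest probe and 1.02 by its other probe. Cenpf, a kinetochore protein, differed by 3.08 ± 0.21, from -1.51 to 1.57. Cdc20, which activates the anaphase-promoting complex, had levels of 0.20 and 2.91 after TmT and of 0.20 and 2.60 after oil. Birc5 (survivin) had 2.86 and 5.20 after TmT and 3.23 and 5.34 after oil. In both genes the treatment groups of a line lay closer to each other than the lines did. The Birc5 difference was 1.99 under normexp without the speck spots and -0.20 with them. Top2a, the DNA topoisomerase of dividing cells, stood at -0.52 and 1.63 after TmT and at -0.26 and 2.36 after oil, and its other probe differed by 0.92. Foxm1, a transcription factor of the G2 phase, fell just short of 2-fold after TmT (0.97 ± 0.22), beside 3.04 after oil. Plk1, a mitotic kinase, differed by 0.64 ± 0.21 after TmT and 0.40 after oil.

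Promoters of mitosis genes are known to carry a CHR element (TTTGAA) and CCAAT boxes, through which the DREAM complex and NF-Y act. On either strand of the 250 bases before the start, TTTGAA was found in 7 of 26 mitosis genes (26.9%), beside 13.3% of measured genes and 18.3% of all promoters. CCAAT was found in 19 of 26 (73.1%), beside 39.9% and 37.5%. Each motif was counted on its own, whether or not it overlapped another. Both shares describe the list and not this comparison. The 3 windows below are from the mitosis genes with the largest differences among those that hold TTTGAA, with each copy of the element in capitals: Cdc20 at chr4:118437344-118437411, Mki67 at chr7:135716422-135716527 and Top2a at chr11:99024190-99024262, all on the minus strand of GRCm38.p6. The copy nearest the start lies 18 to 13 bases before it in Cdc20, 98 to 93 in Mki67 and, on the other strand (TTCAAA), 23 to 18 in Top2a. Mki67 and Top2a hold 2 copies each, and the second one of Top2a lies outside the window.
Cdc20: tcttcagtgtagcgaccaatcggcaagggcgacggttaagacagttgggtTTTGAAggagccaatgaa
Mki67: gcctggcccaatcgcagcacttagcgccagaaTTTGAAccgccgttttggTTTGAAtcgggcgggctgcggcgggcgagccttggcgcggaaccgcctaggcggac
Top2a: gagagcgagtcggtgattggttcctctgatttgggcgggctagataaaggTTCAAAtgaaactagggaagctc

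Several replication and mitosis genes were well above background in TRAMP prostate and not in C57BL/6 prostate after TmT, so that only a bound can be given. Dtl, which directs the licensing factor Cdt1 to destruction, was at least 26.0-fold higher. Neil3, a DNA glycosylase, was at least 18.4-fold higher, and Knl1, a kinetochore scaffold, at least 17.4-fold. Such bounds set the bright level against the dim array, at the gene's own level there or at the lowest level that counted as well above background, whichever was higher. Over all genes there were 541 bounds of at least 2-fold towards TRAMP and 153 towards C57BL/6. That lowest level was -4.57 on the C57BL/6 array and -3.53 on the TRAMP array after TmT. Bounds towards TRAMP were thus set against a lower floor, so the counts cannot be compared directly.

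Counted as one set of 80 genes, the licensing, fork and mitosis lists had 65 genes measured after TmT, of which 44 were higher, none was lower and 61 were above 0. On the 64 genes measured on all 4 arrays the median difference was 1.40 after TmT and 2.03 after oil, and 46 of the 64 were smaller after TmT. Of the 64, 39 were at least 2-fold higher in both treatments. In the oil pair, 7.74% of 18921 measured genes lay 2-fold or more higher in TRAMP and 7.84% lower. The difference between the pairs could not be tested, because it has no residual degrees of freedom. TRAMP mice given oil had the highest level of the 4 arrays for 24 of 31 mitosis genes and C57BL/6 mice given TmT had the lowest level for 20. Under normexp background correction without the speck spots, 23 members were higher and the median was 0.80, and with those spots none was higher and the median was 0.03.

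**Figure D2:**
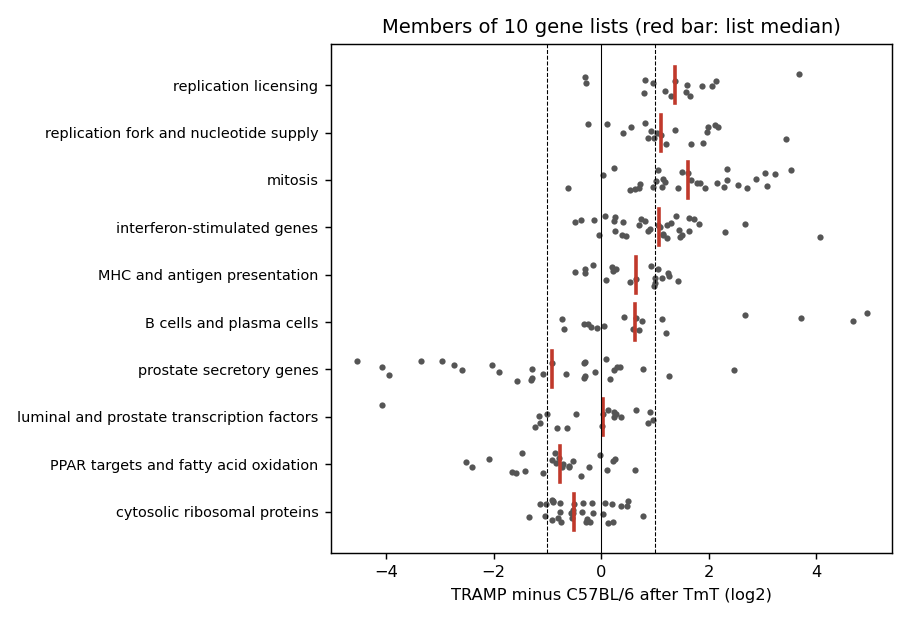
Differences between TRAMP and C57BL/6 prostate after TmT (log2, horizontal axis) for the members of selected gene lists (rows), one point per gene measured on both arrays, with the list's median as a red bar and dashed lines at 2-fold. The median is 1.61 for mitosis and 1.38 for replication licensing, and -0.91 for prostate secretory genes, with -0.76 for PPAR targets.

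Members of the Rb pathway itself were less uniform. Of 19 measured, 7 were higher and none lower, with a median of 0.56, which became 0.32 under normexp without the speck spots and 0.0034 with them. E2f1, an activating E2F, stood at -0.92 and 0.79 after TmT (1.71 ± 0.21) and at -0.62 and 0.84 after oil. Its other probe, which was printed several times, differed by -0.48 after TmT, so its direction depends on the probe. Ccne2, a cyclin of the G1 to S step, differed by 1.54 ± 0.21 after TmT and 1.70 after oil. Rb1, which encodes Rb, was 1.06 ± 0.07 higher by a probe printed several times, and 0.64 by its other probe. Cyclin D1 (Ccnd1), which lies upstream of Rb, differed by -0.31 ± 0.07.

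DNA repair genes, many of which are also expressed in S phase, had 9 of 16 members higher, none lower and a median of 1.07, which became 0.63 under normexp without the speck spots and 0.03 with them. Brca1 moved from -3.75 to -0.89 between the lines after TmT (2.86 ± 0.29), and from -1.74 to -0.12 after oil. Chek1, the checkpoint kinase of stalled forks, had -0.66 and 1.27 after TmT and -0.89 and 2.26 after oil.

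Targets of p53 and inhibitors of cyclin-dependent kinases did not share this direction. None of 22 measured was higher, 1 was lower, and the median was -0.18. Cdkn1a (p21), the classic p53 target, stood at -0.54 and -0.39 after TmT and at -0.62 and -0.21 after oil, a TmT difference of 0.15 ± 0.07. Mdm2 differed by -0.35 ± 0.07 and Ccng1 by -0.60 ± 0.20. Perp, an adhesion protein and p53 target, was the single member past 2-fold, at 5.54 in C57BL/6 and 4.46 in TRAMP mice after TmT (-1.08 ± 0.20), beside -0.49 after oil. Trp53, which encodes p53, differed by 0.20 ± 0.20, and its other probe, printed several times, by -0.12.

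Genes of DNA methylation had 3 of 16 members higher, none lower and a median of 0.16. Uhrf1, which recruits the maintenance methyltransferase to newly copied DNA, stood at -1.45 and 2.22 after TmT and at -0.86 and 2.55 after oil, and both of its probes differed by 3.01 or more. Dnmt1, that methyltransferase, had levels of -3.37 and -1.99 after TmT and of -3.33 and -1.58 after oil. The de novo enzyme Dnmt3a differed by 0.05 ± 0.20 by its brightest probe, within a range of 0.05 to 1.02 over 3 probes, and Dnmt3b by 0.93 ± 0.29. Among histone deacetylases and polycomb genes, 2 of 15 were lower, none was higher and the median was -0.20, which turned to 0.03 under normexp without the speck spots and 0.0012 with them. Hdac2, a class I deacetylase, moved from 0.50 to -1.65 between the lines after TmT (-2.15 ± 0.22) and from 1.05 to 0.12 after oil. Ezh1 moved from 1.16 to -0.42 after TmT (-1.58 ± 0.21), while its oil levels were -1.03 and 0.75. Its line difference thus had opposite signs in the 2 treatments. Ezh2, the polycomb methyltransferase of cycling cells, differed by 0.60 ± 0.28 after TmT and 1.71 after oil.

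Secretory genes of the prostate were the group with the lowest median, -0.91, with 14 of 29 lower and 2 higher. Pbsn, the mouse probasin, had levels of 7.09 in C57BL/6 and 5.06 in TRAMP mice after TmT (-2.04 ± 0.20), and of 7.06 and 4.11 after oil. Tgm4, the transglutaminase that clots semen, stood at 8.11 and 6.54 after TmT (-1.57 ± 0.20) and at 8.01 and 3.90 after oil. The C57BL/6 levels of both genes were alike in the 2 treatments, and in both the TRAMP level was higher after TmT than after oil. Ms4a5, a tetraspan membrane protein, had the lowest difference of the named genes measured on both arrays, with 4.29 and -0.26 after TmT (-4.55 ± 0.21) and 4.56 and -2.28 after oil. Its probe lies at chr19:11351133-11351192 on mm9. Fcgbp, a mucin-like secreted protein, stood at 9.09 and 5.74 after TmT and at 8.95 and 3.60 after oil, and its 2 probes differed by -3.35 and -1.97. Msmb, a microseminoprotein, had 5.96 and 4.65 after TmT (-1.31 ± 0.20) and 5.33 and 5.39 after oil, and the difference between those pairs was not tested.

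Not every secretory gene was lower. Wfdc12, a small protease inhibitor, was higher in both pairs, with -1.60 and 0.87 after TmT and -0.46 and 1.52 after oil. Fkbp5, a known androgen and glucocorticoid target, differed by 1.26 ± 0.21 after TmT and 1.84 after oil, with 3 probes between 0.74 and 1.26. Spink1, another protease inhibitor of seminal fluid, had 9.50 and 9.17 after TmT, within 0.33 ± 0.20 of each other. On the members measured on all 4 arrays the median of the list was -0.99 after TmT and -0.87 after oil.

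The renin genes stood out by level as well as by line. Ren1 was at 4.97 in C57BL/6 and 1.01 in TRAMP mice after TmT (-3.96 ± 0.20), and at 1.90 and -3.15 after oil, with probes of -3.96 and -2.64. Ren2 differed by -4.01 after TmT, where the TRAMP level was 0.19, and its oil levels were 0.90 and -3.11. In each line both probes read more than 3 log2 units higher after TmT than after oil. Ren1 and Ren2 are near-identical copies, and the C57BL/6 genome is known to hold just the first of them. The probes may therefore read the same transcript and are not independent.

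Androgen response elements are commonly described as repeats of the hexamer AGAACA. That hexamer was present on either strand of the 250 bases before the start in 7 of 22 secretory genes (31.8%), beside 13.6% of measured genes and 18.2% of all promoters. Here too the share describes the list and not this comparison. The window of Pbsn is shown because the transgene of TRAMP mice uses the promoter of its rat counterpart. It is chrX:77853540-77853645 on the minus strand of GRCm38.p6, with the hexamer, 95 to 90 bases before the start, in capitals.
Pbsn: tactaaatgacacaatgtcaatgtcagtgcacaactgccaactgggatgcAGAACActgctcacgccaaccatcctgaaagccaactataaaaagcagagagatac

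**Figure D3:**
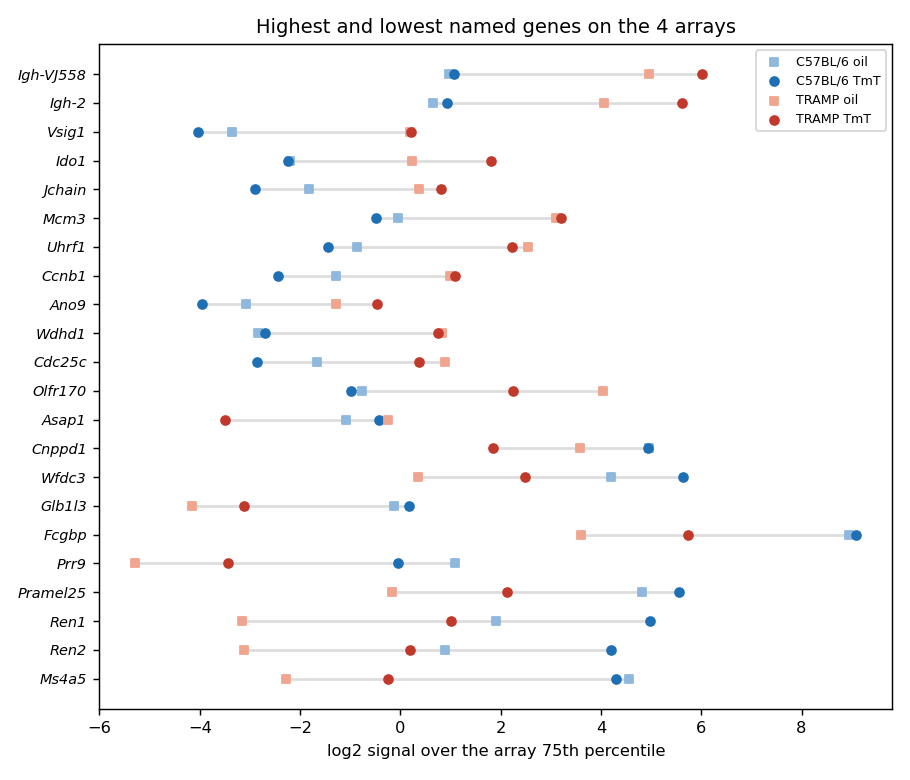
Levels (log2 relative to the array's 75th percentile, horizontal axis) of named genes (rows) on each of the 4 arrays, 1 point per array, blue for C57BL/6 and red for TRAMP, squares for oil and circles for TmT. Mcm3 and Uhrf1 sit higher on both TRAMP arrays, and Ms4a5 and Ren1 lower, with Ren1 also higher after TmT in each line.

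Among luminal and prostate transcription factors, 5 of 19 were lower and none higher, with a median of 0.03. Creb3l4 and Spdef, factors of secretory cells, differed by -1.23 ± 0.21 and -1.16 ± 0.21, beside -0.59 and 0.15 after oil. Hoxb13, which patterns the prostate, had levels of 0.48 and -0.53 after TmT (-1.01 ± 0.21) and of 0.28 and 0.48 after oil. Foxa1, a pioneer factor of prostate epithelium, differed by -0.82 ± 0.21. Foxa2, a factor of neuroendocrine prostate tumours, differed by -1.14 ± 0.09 after TmT and was not well above background on both oil arrays. Under normexp its TmT difference was -0.02 without the speck spots and 0.03 with them.

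Epithelial markers checked the tissue label. The luminal keratins Krt8 and Krt18 were measured on all 4 arrays and differed by -0.04 ± 0.20 and -0.34 ± 0.20 after TmT, and the luminal list had a median of 0.02 with 2 of 15 higher and 1 lower. Psca, a surface antigen of luminal progenitors, was higher in TRAMP after TmT (2.36 and 3.70) and lower after oil (3.62 and 0.74), with a TmT difference under normexp of 1.07 without the speck spots and -0.17 with them. The basal list had a median of 0.06 with 1 of 11 higher, Trp63, at -0.01 and 1.71 (1.72 ± 0.20), whose other probe differed by 0.44. Neuroendocrine and neuronal genes had none of 18 higher, 3 lower and a median of -0.46, which became -0.19 under normexp without the speck spots and -0.0016 with them. Chga, the marker of neuroendocrine cells, stood at -0.53 and -1.51 after TmT (-0.98 ± 0.22), Chgb at 1.24 and -0.03 (-1.28 ± 0.07) and Syp at 2.24 and 1.05 (-1.19 ± 0.20). On the 17 members measured on all 4 arrays, C57BL/6 after TmT had the highest level for 12 and TRAMP after oil the lowest for 15.

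RNA of neighbouring tissue was present on the TmT arrays. Seminal vesicle genes were bright in both lines, with Svs5 at 10.02 and 10.22 and Svs4 differing by 0.04 ± 0.20, and the list had 1 of 16 higher, 6 lower and a median of -0.04, which became -0.11 under normexp without the speck spots and -1.74 with them. Its lower members included Sva (2.72 and 1.25), Scgb1b27 (-1.46 and -2.78) and Svs3a (5.67 and 4.45), where secretory proteins of close sequence may share signal. The Scgb1b27 difference was -0.07 under normexp without the speck spots and 0.03 with them. Skeletal muscle genes were also bright, with Acta1 at 4.52 and 3.26, 1 of 12 lower, none higher and a median of -0.43. Of 18 genes of epididymis, vas deferens and sperm, 8 were measured, 1 of them lower (Defb1, -1.40 ± 0.20), and of 11 urothelial genes 8 were measured and 1 was lower (Upk1a, -1.26 ± 0.20). The part of such tissue in the secretory differences was not tested.

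Immunoglobulin genes held the 2 largest positive differences among genes measured on both arrays. A probe of Igh-VJ558 stood at 1.06 in C57BL/6 and 6.01 in TRAMP mice after TmT (4.94 ± 0.20), and at 0.98 and 4.96 after oil. Its 3 probes ranged from -0.38 to 4.94. Igh-2 had levels of 0.93 and 5.61 after TmT and of 0.65 and 4.05 after oil, and Jchain, which joins IgA and IgM into polymers, had -2.90 and 0.81, and -1.83 and 0.38. These genes of plasma cells were higher in TRAMP in both treatments. Immunoglobulin segments share sequence, so a probe may read several of them. Of 18 B and plasma cell genes measured, 6 were higher and none lower, with a median of 0.62, which became 0.41 under normexp without the speck spots and 0.04 with them. Of the defining B cell markers, Ms4a1 and Cd79a were not well above background on both TmT arrays.

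Genes that interferon induces formed the broadest immune group, with 18 of 34 higher, none lower, 30 above 0 and a median of 1.08. Ido1, which breaks down tryptophan, stood at -2.25 and 1.82 after TmT (4.07 ± 0.22) and at -2.21 and 0.22 after oil. Oas3, an antiviral oligoadenylate synthetase, had -4.11 and -1.43 after TmT and -3.18 and -2.38 after oil, and Oasl2 of the same family had -0.49 and 1.82, and -0.27 and 1.68. Zbp1, a sensor of nucleic acids, had -1.99 and -0.17 after TmT and -1.44 and -1.21 after oil. Other index genes did not pass 2-fold: Isg15 differed by 0.26 ± 0.24, Irf7 by -0.13 ± 0.22 and Rsad2 by -0.37 ± 0.20, the last with probes from -0.37 to 1.87. TRAMP after TmT had the highest level for 19 of the 33 members measured on all 4 arrays and C57BL/6 after TmT the lowest for 19. Under normexp without the speck spots, 4 members were higher and the median was 0.58, and with them none was higher and the median was 0.03.

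Promoters of the group are shown because their shared element is well known. The core of the interferon-stimulated response element, searched as GAAANNGAA on both strands of the 250 bases before the start, was present in 17 of 27 interferon genes found (63.0%), beside 7.51% of measured genes and 8.18% of all promoters. The list holds textbook targets of the factors that bind it, so the share describes the list and not this comparison. The 2 windows are from GRCm38.p6 on the minus strand, Oas3 at chr5:120777670-120777778 and Oas1a at chr5:120907526-120907589, with the core in capitals. Each holds 2 copies of the core that overlap, so the capitals run over both.
Oas3: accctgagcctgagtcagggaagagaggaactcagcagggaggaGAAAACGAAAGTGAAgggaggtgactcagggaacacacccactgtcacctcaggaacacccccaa
Oas1a: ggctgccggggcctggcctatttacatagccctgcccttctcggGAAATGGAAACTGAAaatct

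Antigen presentation genes had smaller differences. Of 19 MHC genes, 7 were higher and none lower after TmT, with a median of 0.65 that became -0.19 under normexp with the speck spots. The oil median was 0.02. Psmb8, a subunit of the immunoproteasome, had 1.16 and 2.59 after TmT and 1.19 and 2.62 after oil, the same difference in both treatments. The class II genes H2-DMb1, Cd74, H2-Aa and H2-Ab1, by their brightest probes, differed more in the TmT pair than in the oil pair. H2-Aa differed by 1.00 after TmT, with its other probe at -0.72, and by -0.67 after oil. H2-Eb1 and H2-DMa, also of class II, had small positive differences after TmT (0.20 and 0.23) and negative ones after oil (-0.43 and -0.57). On the signed scale both were thus also higher in the TmT pair. H2-DMb1 stood at 2.19 and 3.45 after TmT and at 2.11 and 2.09 after oil, and Cd74, the invariant chain, at 2.43 and 3.44 after TmT and at 2.52 and 2.32 after oil. H2-Ab1 differed by 1.13 ± 0.20 by its brightest probe, with 4 probes between -0.59 and 1.13, the lowest of them printed several times. Under normexp the differences of Psmb8, H2-DMb1, Cd74, H2-Aa and H2-Ab1 lay between 0.61 and 1.07 without the speck spots. With those spots they lay between -0.26 and -0.04. Class I H2-K1 differed by 0.99 ± 0.06, with 4 probes between 0.72 and 1.19, and B2m differed by 0.09 ± 0.20.

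Markers of immune cells were mostly dim. T and NK cell genes had 3 of 14 higher, none lower and a median of 0.24, with Il2rb at -1.48 and -0.14 and Cd3e at -3.32 and -2.27, and 14 of the 28 genes found were not well above background on both arrays. Macrophage and dendritic cell genes had 1 of 23 higher, none lower and a median of -0.08. C1qc of complement was that gene, at 0.63 and 1.86, while C1qa differed by -0.24 ± 0.23 and the macrophage receptor Csf1r by -0.93 ± 0.21 with 3 probes between -0.93 and 0.70. Neutrophil and mast cell genes had 2 of 8 higher, S100a9 (-4.06 and -2.24) and Ltf (-1.60 and -0.37), whose other probe differed by 0.76. After oil Ltf stood at -0.48 and -1.47, and S100a9 was not well above background on both arrays. The neutrophil genes S100a8, Ngp, Camp, Csf3r, Elane, Retnlg and Cxcr2 were not well above background on either TmT array. Of the mast cell genes, Cma1 differed by 0.19 ± 0.22 and Cpa3 by -0.50 ± 0.24. Chemokines, cytokines and NF-kB genes had 3 of 28 higher and 1 lower with a median of 0.31, where Ccl4 moved from -2.32 to -0.79, Ccl5 from 1.06 to 2.08 and Ccl2 from -1.63 to -0.62 between the lines. Under normexp C1qc and Ccl5 differed by 0.76 and 0.61 without the speck spots and by -0.03 and -0.05 with them. Whether the interferon difference lies in immune cells or epithelium was not tested.

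PPAR targets and genes of fatty acid oxidation were lower in TRAMP mice after TmT. Of 24 measured, 8 were lower and none higher, 20 were below 0 and the median was -0.76, beside 0.11 after oil. Under normexp 6 were lower with a median of -0.47 without the speck spots, and 2 were lower with a median of -0.09 with them. Pdk4, which holds back glucose oxidation in fasting, stood at 3.43 in C57BL/6 and 0.91 in TRAMP mice after TmT (-2.52 ± 0.20), and at 2.86 and 2.97 after oil. Angptl4, an inhibitor of lipoprotein lipase, had 0.72 and -1.68 after TmT and 1.08 and 1.63 after oil. Acot1, an acyl-CoA thioesterase, had 3.44 and 1.35 after TmT and 2.60 and 3.48 after oil. In these genes the TRAMP array after TmT was the low one of 4. Cpt1a, the gate of fatty acid entry into mitochondria, had 4.35 and 2.68 after TmT and 3.61 and 3.68 after oil, and its 2 probes differed by -1.67 and -1.62. TRAMP after TmT had the lowest level for 15 of the 24 members, a share of 62.5%, beside 25% of all genes measured on 4 arrays. Other lists came near it, with 57.1% for oxidative phosphorylation genes and 54.5% for cytosolic ribosomal protein genes. The receptors themselves differed among each other, with Ppara at -0.73 ± 0.08, Ppard at -1.58 ± 0.22 and Pparg at 0.62 ± 0.07.

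**Figure D4:**
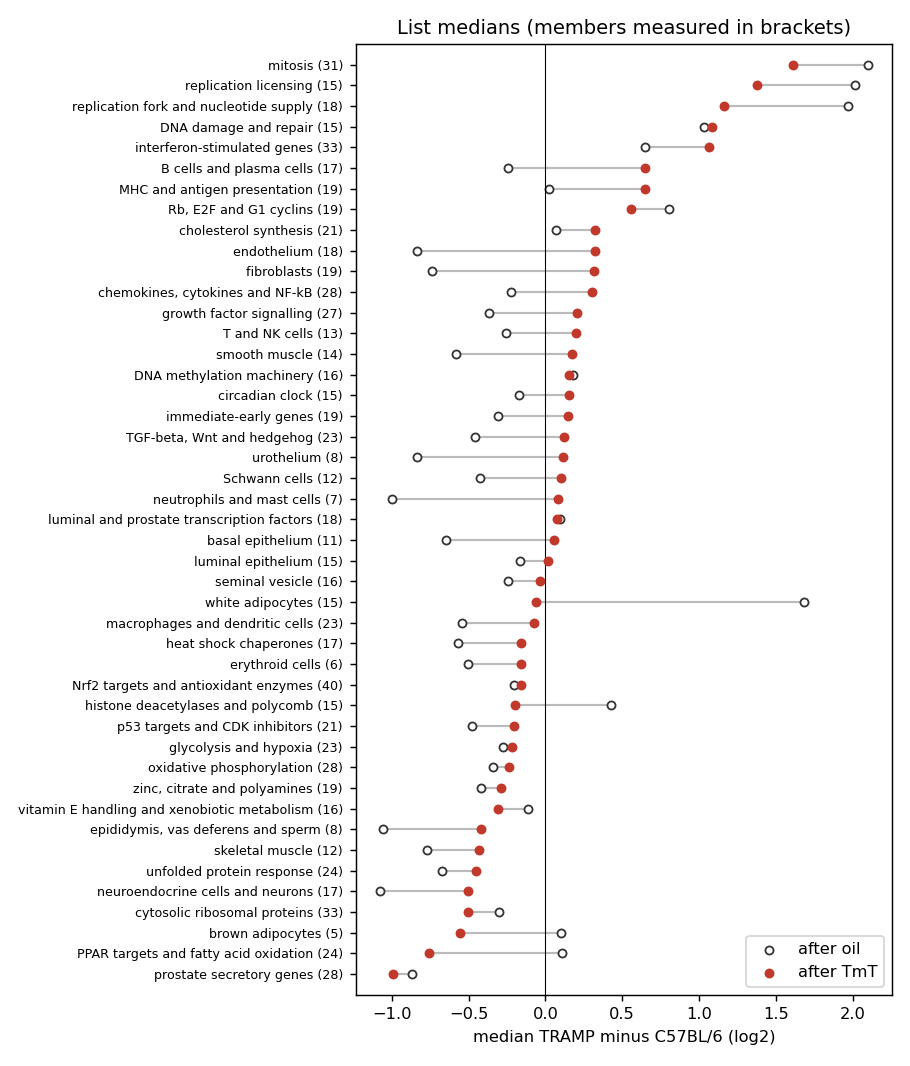
Median difference between TRAMP and C57BL/6 prostate (log2, horizontal axis) of each gene list (rows) after TmT and after oil, over members measured on all 4 arrays. Proliferation lists are to the right in both treatments, fibroblast and endothelial medians are 0.31 and 0.32 after TmT against -0.74 and -0.84 after oil, and the white adipocyte median is -0.06 after TmT against 1.69 after oil.

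White adipocyte genes bear on the oil side of that comparison. After TmT their median was -0.06 with 1 of 15 higher and none lower, and after oil it was 1.69. Adipoq, the adipocyte hormone adiponectin, stood at -0.59 and -1.20 after TmT and at 0.02 and 2.29 after oil. Plin1, the coat of the fat droplet, had -0.79 and -1.01 after TmT and -1.18 and 1.08 after oil. TRAMP mice given oil had the highest level for all 15 genes, so the adipocyte signal set that array apart from the other 3. Cfd (adipsin) was the member higher after TmT, with 2.03 and 3.43, although its difference under normexp was 0.94 without the speck spots and -0.15 with them. Several PPAR targets are also adipocyte genes, and the part of fat in their oil values was not tested.

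Stromal lists also ran differently in the 2 treatments. Fibroblast genes had a median of 0.31 after TmT, which became -0.18 under normexp with the speck spots, with none of 19 higher and 1 lower, beside -0.74 after oil. Col1a1, a chain of collagen I, stood at 3.26 and 3.82 after TmT (0.57 ± 0.06) and at 3.08 and 2.43 after oil. Its 3 probes differed by 0.50 to 1.32 after TmT. Dcn (decorin) had 5.28 and 4.54 after TmT and 5.52 and 3.16 after oil, and Mfap5 was the lower member, at -1.98 and -3.19 after TmT, a difference that turned to 0.04 and 0.03 under normexp without and with the speck spots. Of the 19 genes, 18 had a higher line difference after TmT than after oil, and TRAMP after oil had the lowest level for 16. Endothelial genes had a median of 0.32 after TmT with 1 of 18 higher and 1 lower, beside -0.84 after oil. Pecam1 stood at -0.78 and 0.00 after TmT and at -0.29 and -0.43 after oil, Flt1 differed by 1.21 ± 0.21 after TmT, and Ly6c1 was lower in both pairs (-2.19 ± 0.21 and -1.89). Smooth muscle had none of 14 past 2-fold after TmT, with a median of 0.17, which turned to -0.09 under normexp without the speck spots and -0.27 with them. Acta2 differed by 0.00 ± 0.20 by its brightest probe, with 5 probes between -0.28 and 1.33. Schwann cell genes had a median of 0.10.

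Genes that handle vitamin E and foreign compounds were also compared between the lines after the dose. Of 28 genes 16 were measured, 1 was higher, none was lower and the median was -0.31. Over all measured genes 8.45% were higher and 6.09% lower, and so small a count cannot be set apart from those shares. TRAMP after TmT had the lowest level of the 4 arrays for 7 of the 16 (43.8%), beside 25% of all genes. Scarb1, a lipoprotein receptor that takes up vitamin E, differed by -0.09 ± 0.21, and Sec14l2, a tocopherol-associated protein, by -0.32 ± 0.20. Cholesterol synthesis genes had 2 of 21 higher, none lower and a median of 0.32, with Sqle at -0.37 ± 0.20 and Stard4 at 1.16 ± 0.27.

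The list of Nrf2 targets and antioxidant enzymes, which also holds Nfe2l2 and Keap1, had none of 40 higher, 3 lower and a median of -0.16. Over all measured genes 8.45% were higher and 6.09% lower. The 3 lower members were Prdx6, Nqo1 and Mt1. Prdx6, a peroxidase that repairs membrane lipids, stood at 6.68 and 3.82 after TmT (-2.86 ± 0.20) and at 6.31 and 5.39 after oil, with 3 probes between -2.86 and -1.13. Nqo1, a quinone reductase, had 1.23 and -0.70 after TmT and 0.82 and 1.84 after oil. Its line difference was negative after TmT and positive after oil. Mt1, a metal-binding protein, had 5.56 and 3.70 after TmT and 4.59 and 2.45 after oil. Gclc, Hmox1 and Gstm1 differed by 0.42 ± 0.20, -0.44 ± 0.20 and 0.35 ± 0.20, and Nfe2l2, which encodes Nrf2, by -0.45 ± 0.20.

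The prostate accumulates zinc and citrate and makes polyamines. Of 19 genes of these functions, 5 were lower and 1 higher, with a median of -0.29. Slc30a2, a zinc exporter, stood at 1.94 and 0.10 after TmT (-1.84 ± 0.21) and at 1.52 and -0.97 after oil. Sms, spermine synthase, had 2.64 and 1.07 after TmT by its brightest probe, while its other probe differed by 0.37. Oaz1, the antizyme that limits polyamine synthesis, had 5.57 and 4.12 after TmT and 4.79 and 5.52 after oil, and its other probe differed by -0.78 after TmT. The rate-limiting enzyme Odc1 was at 8.23 and 8.21. Acly, which turns citrate into acetyl-CoA, was the higher member, at 3.06 and 4.24 after TmT and at 2.75 and 4.11 after oil, on both treatments in the same direction and by a similar amount.

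Housekeeping groups leaned to lower values in TRAMP after TmT. Cytosolic ribosomal protein genes had 4 of 33 lower, none higher, 24 below 0 and a median of -0.51, beside -0.30 after oil. The median became -0.78 under normexp without the speck spots and -2.52 with them. Among the lower genes was Rplp0, at 2.34 and 0.99 after TmT (-1.35 ± 0.07) and at 2.36 and 2.15 after oil. Oxidative phosphorylation genes had 3 of 28 lower, none higher and a median of -0.24, led by Ndufb5 of complex I (-1.18 ± 0.20) and Sdha of complex II (-1.06 ± 0.20, its other probe -0.35). The unfolded protein response had 3 of 24 lower, none higher and a median of -0.45, with Sec61b, part of the translocation channel, at 4.59 and 3.41, and the stress sensor Atf6 at 2.43 and 1.36. Glycolysis and hypoxia genes had 1 of 23 higher (Eno1, 1.02 ± 0.21), 1 lower (Pgk1, -1.20 ± 0.20) and a median of -0.22. Bright genes as a whole leaned the same way, since the median difference was -0.08 in the brightest of the 5 groups and 0.19 in the dimmest.

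Heat shock chaperones had none of 17 past 2-fold after TmT and a median of -0.16. Hspa1a, an inducible HSP70, stood at 2.00 and 1.76 after TmT and at 4.25 and 0.50 after oil, where C57BL/6 mice given oil were high. Immediate-early genes, which respond to handling and stress within minutes, had 1 of 19 higher (Fosb, 1.09 ± 0.22), 2 lower (Zfp36, -1.12 ± 0.20 with its other probe at -0.08, and Nr4a1, -1.08 ± 0.20) and a median of 0.15. The circadian clock list, relevant to the time of collection, had 1 of 16 lower and none higher, with a median of 0.03. The lower one was Cry1, a clock repressor, at -1.26 by its brightest probe and 0.04 by its other probe, and at 0.10 and 0.04 under normexp without and with the speck spots. Per2 and Dbp, clock genes of high amplitude, differed by 0.91 ± 0.21 and -0.45 ± 0.20, with the other probe of Per2 at -0.07.

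Growth factor genes had 1 of 27 higher, 1 lower and a median of 0.21, which became -0.04 under normexp with the speck spots. Egf, made by secretory epithelium, stood at 3.24 and 1.19 after TmT (-2.06 ± 0.07) and at 3.11 and 1.44 after oil, by a probe printed several times. Fgf2 differed by 1.18 ± 0.24, with its other probe, printed several times, at -0.09. Igf1 differed by 0.25 ± 0.20. In the TGF-beta, Wnt and hedgehog list 2 of 23 were higher and 1 was lower, with a median of 0.12. Smad7, the inhibitor of TGF-beta signalling, moved from -0.91 to 0.81 (1.71 ± 0.21), Hes1 of the Notch pathway from -1.01 to 0.20, and Tgfb2 from 0.93 to -0.31.

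Beside the lists, a few single genes had among the largest differences of all named genes. Vsig1, an adhesion protein of the immunoglobulin superfamily, stood at -4.03 and 0.21 after TmT (4.25 ± 0.33) and at -3.36 and 0.20 after oil, with its probe at chrX:137472583-137472642 on mm9. Ano9, of a family of ion channels and scramblases, had -3.96 and -0.47 after TmT and -3.07 and -1.28 after oil. Olfr170 of the olfactory receptor family had -0.98 and 2.25 after TmT and -0.76 and 4.04 after oil, and Olfr167, of the same family, was at least 76.2-fold higher after TmT. Olfactory receptors share sequence, so the pair may not be independent. Obp2a, an odorant-binding protein, was at least 130-fold higher, its level 2.45 in TRAMP mice after TmT and 2.08 after oil.

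On the lower side, Pramel25 had 5.55 and 2.14 after TmT and 4.82 and -0.17 after oil, and the beta-galactosidase homologue Glb1l3 had 0.17 and -3.11, and -0.13 and -4.16. Wfdc3, of the same inhibitor family as Wfdc12, had 5.63 and 2.48 after TmT and 4.19 and 0.36 after oil. It was lower where Wfdc12 was higher, and it had the lowest difference of the seminal vesicle list after TmT. G6pc2, a glucose-6-phosphatase, was at least 27.6-fold lower, with 1.26 in C57BL/6 mice after TmT. Cldn23, a tight junction protein, was at least 8.70-fold lower, and here the oil levels were 0.10 and -0.37. Cnppd1 differed by -3.09 by its brightest probe and by 0.99 by its other probe, so that its direction depends on the probe.

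Set beside the oil pair, which shares no array with the TmT pair, 1119 of the 1425 genes higher after TmT and measured on 4 arrays (78.5%) also had a positive difference after oil, and 822 of 1029 lower genes (79.9%) a negative one. Over all 16961 genes measured on 4 arrays the median difference after oil was -0.08. Past 2-fold in both, 483 genes were higher, which was 33.9% of the TmT list and 39.0% of the 1237 in the oil list. Lower in both were 282 genes, 27.4% of the TmT list and 20.9% of the 1351 in the oil list. Of all 18921 genes measured after oil, 7.74% lay 2-fold or more higher in TRAMP and 7.84% lower. Past 2-fold in opposite directions were 46 genes higher and 32 lower after TmT. Across 16961 genes, which are not independent and share their arrays, the 2 differences had a Pearson correlation of 0.43.

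**Figure D5:**
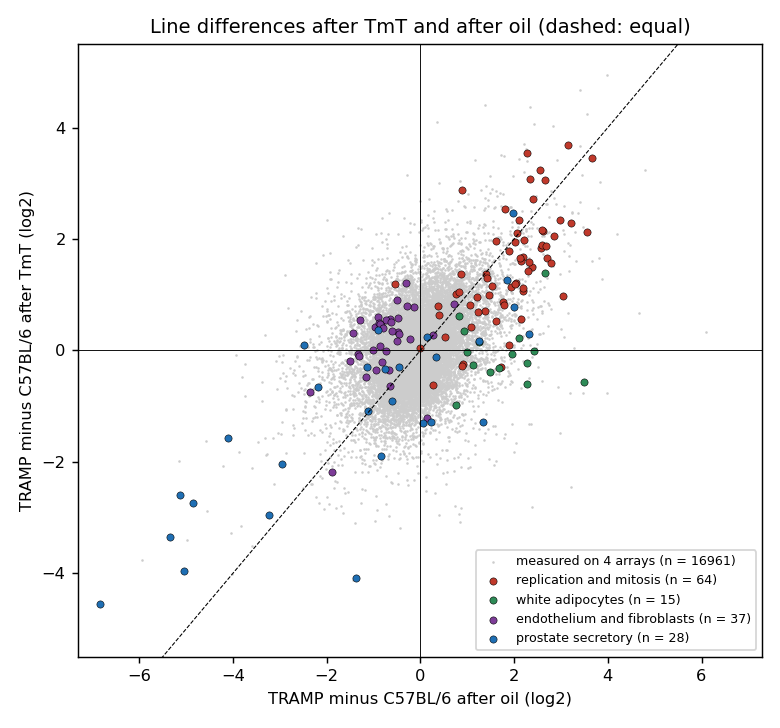
Difference between TRAMP and C57BL/6 prostate after TmT (vertical axis, log2) against the difference after oil (horizontal axis, log2) for the 16961 genes measured on all 4 arrays. Members of selected lists are coloured and the dashed line marks equal differences. Secretory genes (blue) lie low in both treatments (medians -0.99 and -0.87), while white adipocyte genes (green) lie at -0.06 after TmT and 1.69 after oil by their medians.

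Genes whose line difference was opposite in the 2 treatments show which array stood apart. Ephx2, soluble epoxide hydrolase, which turns lipid epoxides into diols, stood at 2.23 and -0.59 after TmT and at 0.20 and 2.59 after oil. Each TmT array lay away from its oil counterpart, in opposite directions. Lrg1, a secreted glycoprotein of inflammation, had 0.16 and 1.87 after TmT and 1.65 and -0.44 after oil, and Cyp2j13, an arachidonic acid epoxygenase family member, had 0.71 and 2.28, and 1.56 and -0.67, with its other probe differing by -0.31 after TmT. Asap1 had -0.43 and -3.50 after TmT and -1.08 and -0.25 after oil, with the TRAMP TmT array low. Under normexp the TmT differences of Cyp2j13 and Asap1 were 0.93 and -0.56 without the speck spots and -0.04 and 0.02 with them. With 1 array in each group, these differences between pairs were not tested.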

How the data were processed

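Prostate RNA labelled with Cy3 was hybridised to Agilent 1-colour mouse arrays, 1 array for each of 4 groups. The deposited intensity of a spot is the processed signal of Agilent Feature Extraction 10.2.1.3, background-subtracted and detrended within its array per the file headers, with probe positions on mm9. Multiplicative detrending had been applied on every array but that of TRAMP mice after TmT. The deposited value table held the same intensities for 45018 features.

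Control spots and outlier spots (131 to 348 per array) were left out, and saturation occurred nowhere. Each intensity was then divided by the 75th percentile of its array and taken to log2, copies of a probe were averaged, and a gene took its brightest probe over the 4 arrays. Symbols were updated through RefSeq accessions, which matched 24844 of 41174 probes. Genes well above background on both arrays were compared, and genes above it on 1 array only gave bounds of at least N-fold. With 1 array a group no test was possible, and precision is limited by that number. The scripts were tested on simulated data. Python 3.11.15, pandas 2.3.3 and, for normexp, limma 3.58.1 in R 4.3.3 were used.

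The members and all 45 gene lists were chosen with earlier results of these data known. Genes named are the 12 highest and 12 lowest with a settled symbol, the 4 largest members and the index genes of each list, the 8 largest bounds each way, and the genes that most differ between treatments or most exceed 2-fold in both. A few genes that this rule would name are not reported here. Alternatives covered scaling, background, detrending, filters, probes, outlier spots and the threshold. Exons under the probes and the transgene's own RNA were not analysed here.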

Additional observations from a re-analysis of the deposited data

Results flagged for a closer look

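Some line differences had opposite signs after TmT and after oil. None of these differences between treatments was tested, since each group had 1 array. Among lists with both medians at least 0.2 from 0, the endothelial median was 0.32 after TmT and -0.84 after oil, a gap of 1.16. The fibroblast median was 0.31 and -0.74, a gap of 1.05, and B and plasma cell genes measured on all 4 arrays had 0.65 and -0.24, a gap of 0.89. Growth factor genes had 0.21 and -0.37, a gap of 0.57, and chemokines, cytokines and NF-kB genes had 0.31 and -0.23, a gap of 0.53.

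Of the 8 genes with the largest gap in each direction, those given here lay 2-fold or more apart, in opposite directions, in both treatments. Those more positive after TmT were Psca (1.35 after TmT and -2.88 after oil, a gap of 4.23), Lrg1 (1.72 and -2.09, a gap of 3.80), Cyp2j13 (1.57 and -2.23, a gap of 3.80), Slc35f6 (2.05 and -1.65, a gap of 3.70) and Icosl (1.74 and -1.93, a gap of 3.67). Cyp2j13, Slc35f6 and Icosl had other probes at -0.31, 0.72 and 0.05 after TmT. Genes more negative after TmT were Ephx2 (-2.82 and 2.39, a gap of -5.21), Brd8 (-1.48 and 2.97, a gap of -4.45) and Pira2 (-1.83 and 2.00, a gap of -3.83). The 3 probes of Brd8 lay between -1.48 and -0.37 after TmT.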

How the results depend on the processing

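Each list median kept its sign with outlier spots kept. The deposited value table holds the same intensities, so it had to give the same medians and is no separate check. A few medians near 0 turned within their error: with median scaling those of luminal transcription factors (-0.064), luminal (-0.074) and basal epithelium (-0.034) and the clock (-0.062), with quantile scaling the clock (-0.0059), with loess the clock (-0.074) and neutrophils (-0.011), and without detrending the clock (-0.0057) and seminal vesicle (0.0019). The share of higher genes was 46.8% with median scaling, 55.5% with loess, 60.7% with the mean over all probes, and 60.7% at 3-fold. Counts of higher and lower genes were 3219 and 2171 without the background filter, 887 and 656 with the strict filter, and 387 and 251 at 3-fold. Higher in both treatments were 964, 293 and 140 genes, and lower in both 647, 179 and 68. At 3-fold, 29 core proliferation, 7 interferon, 9 secretory and 4 PPAR genes passed, and 5 PPAR genes with the strict filter. The secretory median was -0.49 without the filter and -1.11 with the mean over probes, and the epididymis median became 0.21 without the filter.

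Normexp background correction changed the most. A bright speck covered 17 spots of the C57BL/6 TmT array and 10 of the TRAMP TmT array. As planned, normexp gave 2 higher genes (0.211%), 0 higher and 94 lower in both treatments, 0 core proliferation, 0 interferon and 2 PPAR genes, and medians of 0.028 for core and 0.031 for interferon genes, -1.25 for secretory and -0.091 for PPAR genes. Fitted without the speck spots, an alternative chosen after seeing the data, it gave 210 higher and 543 lower genes (27.9% higher), 108 higher and 148 lower in both, 23 core and 4 interferon genes, and medians of 0.80, 0.58, -1.13 and -0.47. Other causes were not tested. Medians beyond their error turned sign under planned normexp for fibroblasts (-0.18), MHC (-0.19) and growth factors (-0.036), and differences past 2-fold for Asap1 0.016, Psca -0.17, Cyp2j13 -0.036, Brd8 0.015, Pira2 0.030, Psmb8 -0.044, H2-DMb1 -0.17, Tapbp -0.19, H2-Ab1 -0.26, Cd74 -0.18, H2-Aa -0.072, Cidea 0.011, Cxcl15 0.015, Ccl5 -0.053, Cry1 0.038, Mfap5 0.035, Foxa2 0.033, C1qc -0.026, Birc5 -0.20, Dut -0.19, Lig1 -0.15, Mcm6 -0.53, Scgb1b27 0.031 and Cfd -0.15. Without the speck spots the sign turned for Cry1 (0.10) and Mfap5 (0.043). No paired analysis was possible because each group had 1 array. Signal over background limits dim genes, since 63.9% of spots were well above it on the TRAMP TmT array.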

Other observations

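Blood and brown fat genes were not part of the main account. Of 8 erythroid genes found, 6 were measured after TmT, none passed 2-fold and the median was -0.16, beside -0.50 after oil. Hba-a1 and Alas2, of haemoglobin and haem synthesis, differed by -0.37 ± 0.20 and -0.09 ± 0.20. Of 9 brown adipocyte genes found, 5 were measured, 1 was lower and the median was -0.56. Cidea, a protein of fat droplets, was that gene, at -0.41 in C57BL/6 and -1.72 in TRAMP mice after TmT and at -0.73 and 1.64 after oil.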
